A study of Homo sapiens with 24 samples.

Results

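The joint action of TRAIL and propionate/acetate on the transcripts of HT29 cells, an established line of human colon adenocarcinoma, was measured as a departure from additivity. The cells were left untreated (NT) or received, for 6 h, propionate at 30 mM together with acetate at 15 mM (C3/C2), TRAIL (100 ng/ml with 2 µg/ml of the anti-Flag M2 antibody) or both (T+C3/C2), with 4 arrays for each of these 4 groups. These make up 16 of the 24 arrays of the series, and the other 8 hold cells given the propionibacterial culture supernatant (SN, diluted) without or with TRAIL (T+SN). The antibody was a part of the TRAIL treatment, so that the TRAIL effect includes it, and every value comes from a single cell line. The 4 arrays of a group stand for 2 independent experiments done in duplicate. The labels do not say which replicates belong together, so that n counts arrays and p-values measure the spread between these arrays, part of which may be technical.

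The departure is (T+C3/C2 − C3/C2) − (TRAIL − NT) on the log2 scale. It is 0 where the fold changes of both treatments multiply, above 0 where cells given both hold more of a transcript than this sum, and below 0 where they hold less. Levels are log2 intensities relative to the 75th percentile of each array, which is set to 0, and they are not compared between genes. A gene was called at a departure of at least 2-fold with an adjusted p under 0.05 (limma, Benjamini-Hochberg over all genes tested).

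TRAIL binds death receptors at the cell surface, which recruit the adaptor FADD and caspase-8 and thereby start apoptosis. The same receptors can also signal to the transcription factor NF-kB and to MAP kinases, which switch on chemokines, adhesion molecules and immediate early genes. NF-kB works as dimers of related subunits: those with RELA act within minutes and are held back by inhibitors such as those encoded by NFKBIA and TNFAIP3, while those made from NFKB2 and RELB act later. Propionate and acetate are short-chain fatty acids that gut bacteria release by fermentation. Propionate is known to inhibit histone deacetylases and so to change the transcription of many genes of colon cells.

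The stretches of 250 bases before the transcription start are shown for CXCL1 and CXCL2, which had the highest departures above the sum among named genes measured in all 4 groups, and for LTB and UBD, which had the lowest departures below it among named genes with and without that condition. They are RefSeq sequences on GRCh38.p14, read 5′ to 3′ on the strand of the gene. Capitals mark GGG and CC with 5 bases of any kind between them, a general form of the site bound by NF-kB, on either strand, where neighbouring matches overlap.
CXCL1 (chr4:73869143-73869392, plus strand): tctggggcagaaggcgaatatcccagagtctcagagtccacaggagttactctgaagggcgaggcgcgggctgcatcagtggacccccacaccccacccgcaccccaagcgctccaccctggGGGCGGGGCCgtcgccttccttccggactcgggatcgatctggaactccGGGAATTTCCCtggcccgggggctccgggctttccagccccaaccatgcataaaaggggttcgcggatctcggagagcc
CXCL2 (chr4:74099196-74099445, minus strand): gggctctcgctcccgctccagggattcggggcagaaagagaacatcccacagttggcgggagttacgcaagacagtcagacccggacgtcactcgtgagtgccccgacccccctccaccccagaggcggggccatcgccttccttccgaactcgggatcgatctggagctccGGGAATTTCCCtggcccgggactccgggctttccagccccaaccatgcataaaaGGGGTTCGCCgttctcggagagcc
LTB (chr6:31582425-31582674, minus strand): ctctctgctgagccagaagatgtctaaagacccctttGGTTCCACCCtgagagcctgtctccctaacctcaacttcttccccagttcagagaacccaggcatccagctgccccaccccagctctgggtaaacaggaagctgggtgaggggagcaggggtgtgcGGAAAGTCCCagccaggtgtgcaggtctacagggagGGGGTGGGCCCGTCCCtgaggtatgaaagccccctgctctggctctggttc
UBD (chr6:29559733-29559982, minus strand): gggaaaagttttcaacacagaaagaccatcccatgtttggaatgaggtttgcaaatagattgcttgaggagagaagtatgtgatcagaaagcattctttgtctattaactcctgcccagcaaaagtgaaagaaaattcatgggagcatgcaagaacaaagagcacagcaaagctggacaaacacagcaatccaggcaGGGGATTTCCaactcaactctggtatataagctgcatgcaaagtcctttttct

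The CXCL1 and CXCL2 stretches both held GGGAATTTCC, which begins 79 and 78 bases before the start and overlaps GGAATTTCCC on the other strand. LTB held GGAAAGTCCC 87 bases before the start and UBD held GGGGATTTCC 53 bases before it, so that genes on both sides of the sum carried such letters. In the window from 250 bases before to 50 after the start, this NF-kB form was found in 29 of 33 genes above the sum with a RefSeq promoter (87.9%), in 14 of 22 below it (63.6%) and in 8493 of the 11848 promoters of all genes tested (71.7%). The form is thus common, and these shares are a description. TGANTCA, the site of AP-1, was held by 2 of 33 above, 0 of 22 below and 5.53% of all, and TGACGTCA, the site of ATF and CREB, by 0 of 33, 1 of 22 and 2.88%. CCAAT was held by 16 of 33 above (48.5%), 4 of 22 below (18.2%) and 35.7% of all.

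Colon epithelial markers lay well above background on all 16 arrays for 11 of 11 genes, among them EPCAM and KRT20. So did 1 of 6 fibroblast markers (LUM), 2 of 5 leukocyte markers (PTPRC and CD14) and 3 of 4 endothelial markers (PECAM1, CDH5 and VWF). The leukocyte marker LYZ had no probe under that symbol and was not measured. Of the fibroblast markers, COL1A2, COL3A1, DCN and PDGFRB lay well above background on 0 of the 16 arrays, as did the endothelial KDR. The median 75th percentile of intensity was 883 in NT, 820.1 in C3/C2, 663 in TRAIL and 503 in T+C3/C2, and the share of probes well above background ran from 49.8% to 57.8% over arrays. No spot was saturated, and r across genes was 0.993 to 0.998 for pairs of arrays within a group. The NT and C3/C2 arrays shared slides 1 and 2, the TRAIL arrays lay on slide 3 and the T+C3/C2 arrays on slide 4. An array measures the culture as a whole, so that fewer cells with a transcript and less of it per cell cannot be told apart. The departure is also a difference between slides 3 and 4, and slide and interaction cannot be told apart. Both effects of TRAIL, without and with the acids, are likewise differences between slides, so that TRAIL and slide cannot be told apart. The effect of C3/C2 in the presence of TRAIL is a difference between slides 3 and 4. Only the effect of C3/C2 alone was measured within slides.

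Most genes lay close to the sum. The median departure over 20703 genes was 0.01, its median SE was 0.153, and 102 genes were called above the sum (0.493% of genes tested) and 34 below it (0.164%). At any fold change 361 genes passed the adjusted p above the sum (1.74%) and 235 below it (1.14%), and at 2-fold with an unadjusted p under 0.05 it was 212 (1.02%) and 112 (0.541%). The single contrasts called more genes: 155 rose (0.749%) and 452 fell (2.18%) with TRAIL in the absence of acids, 330 rose (1.59%) and 442 fell (2.13%) with TRAIL in their presence, and 2784 rose (13.4%) and 1279 fell (6.18%) with C3/C2. The counts with TRAIL, and all TRAIL fold changes below, include any difference between slides. The balance of both sides depended on how arrays were scaled: 75% of the genes called lay above the sum here, against 53.6% (74 above and 64 below) with each array scaled to its median, as in the table of the authors, and 45.7% (42 and 50) with scaling to the spike-in probes. These scalings moved the median departure of all genes to -0.14 and -0.25, and departures below are read relative to the 75th percentile.

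**Figure D1:**
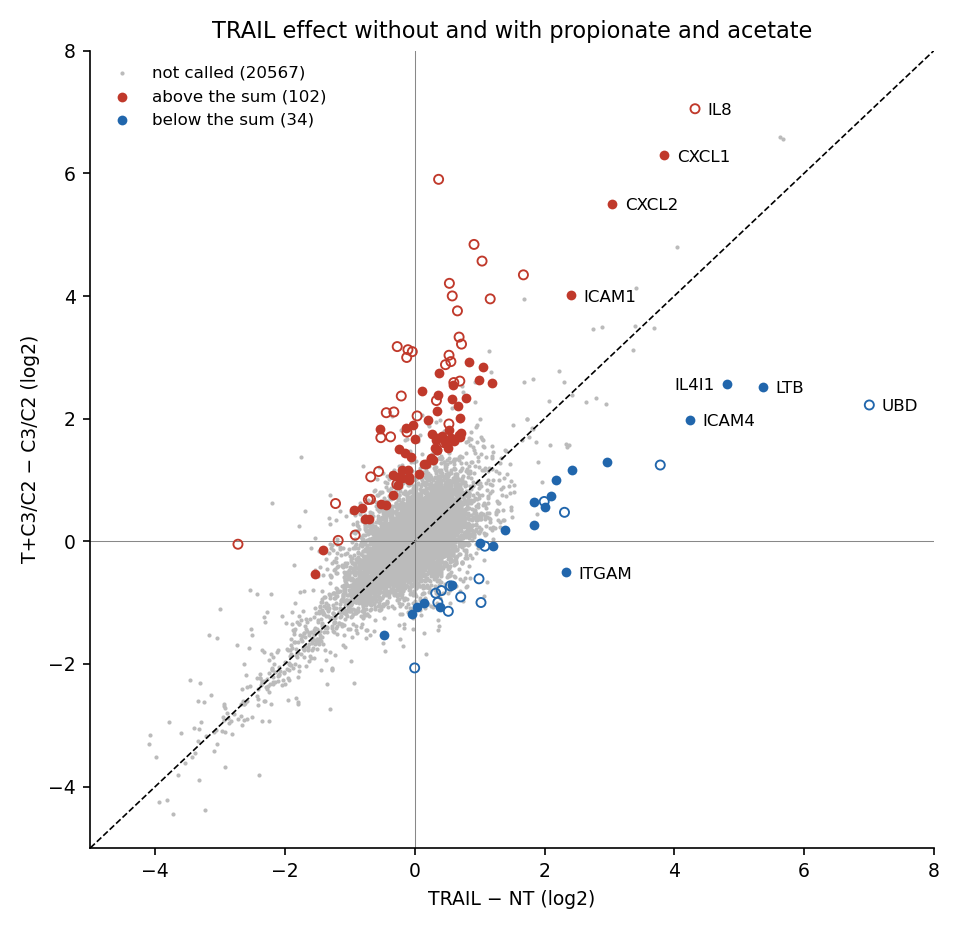
Effect of TRAIL (log2) without C3/C2 on the x axis and with C3/C2 on the y axis for each of 20703 genes; on the dashed line both effects are equal. Red points are the 102 genes called above the sum and blue points the 34 called below it, filled where the gene was measured in all 4 groups and open where it was not. IL8, CXCL1 and CXCL2 lie high above the line with a large rise on both axes, most other red points lie near 0 on the x axis, and LTB, IL4I1, ICAM4, ITGAM and UBD lie far to the right below it.

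Of the 102 genes above the sum, 62 were measured in all 4 groups, that is well above background on at least 1 array of each group, and 46 on all 16 arrays. Of the 34 below, 20 were measured in all 4 groups and 14 on all 16 arrays. The calls were thus more frequent among genes near background: 40 and 14 of 1470 genes not measured in all 4 groups were called (2.72% and 0.952%), against 62 and 20 of 19233 measured in all 4 (0.322% and 0.104%). Among the 4141 genes of the lowest mean level 58 were above and 16 below, and among the 4141 of the highest 0 were called. A gene with an official symbol stood behind 41 of the calls above and 22 of those below. The rest were unnamed transcripts and genes named after an open reading frame, such as C19orf39 above the sum (1.13) and C13orf15 below it (-1.03).

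Most genes above the sum measured in all 4 groups were called with TRAIL only when the acids were present. Genes not called include some that passed the adjusted p at under 2-fold. With TRAIL alone these included ARC, at 0.61 on the log2 scale, and NCF1, at -0.53. Among the 62 measured in all 4 groups, 47 were not called with TRAIL alone and rose with TRAIL in C3/C2, 5 rose in both cases, 8 were called in neither, and 2 fell with TRAIL alone and were not called with the acids. The 5 that rose in both cases were CXCL1, CXCL2, ICAM1, RNU6ATAC and SPIB. Read from the side of the acids, 30 of the 62 were not called with C3/C2 alone and rose with C3/C2 in the presence of TRAIL. A further 14 rose in both cases. Of all genes, 14.8% were called higher with C3/C2 in the presence of TRAIL and 1.59% with TRAIL in C3/C2. A departure above the sum favours such rises, so that these counts are a description.

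The neutrophil-attracting chemokines CXCL1 and CXCL2 had departures of 2.45 each. CXCL1 (probe on chromosome 4, 74736850 to 74736909, hg19) lay at -0.89, -0.90, -1.03 and -1.25 in NT, at -0.43, -0.57, -0.66 and -0.53 in C3/C2, at 2.63, 2.66, 2.89 and 3.14 in TRAIL and at 5.64, 5.68, 5.83 and 5.83 in T+C3/C2. The 4 groups did not overlap, and the highest 4 values were those of the co-treatment. TRAIL raised CXCL1 14.4-fold without and 78.3-fold with the acids, while C3/C2 alone raised it 1.39-fold, and the departure was 2.45 ± 0.196 (SE, n = 4 arrays per group, adjusted p = 1.5e-07 by limma).

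CXCL2 behaved in the same way on its own probe. It lay at -2.77, -2.83, -2.50 and -2.67 in NT, at -1.94, -2.07, -2.12 and -2.17 in C3/C2, at 0.01, 0.01, 0.55 and 0.83 in TRAIL and at 3.30, 3.43, 3.51 and 3.45 in T+C3/C2. TRAIL raised it 8.25-fold without and 45.2-fold with the acids (departure 2.45 ± 0.2, adjusted p = 1.77e-07, limma). The probes of CXCL1 and CXCL2 match at no more than 20 of 60 bases in any ungapped alignment, and a further probe of each gave departures of 2.43 and 1.96. Their relative CXCL3 had a departure of 0.72 that did not pass the test (adjusted p = 0.0606, limma).

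IL8, which encodes the chemokine CXCL8, had the largest departure of the chemokines, 2.73 ± 0.459 (adjusted p = 0.00154, limma), but none of its NT and C3/C2 arrays was well above background. On these 8 arrays its measured value lay between -7.76 and -6.02. With TRAIL it lay at -2.61, -2.40, -2.25 and -1.79, and with T+C3/C2 at 0.04, 0.16, -0.01 and -0.05. TRAIL thus raised IL8 at least 11-fold without and at least 56.3-fold with the acids, each against the lowest level well above background or the gene's own level, whichever was higher. A further IL8 probe departed by 2.52 (adjusted p = 0.0103, limma), with TRAIL effects of 0.82 without and 3.34 with the acids on the log2 scale, smaller than on the first probe. The size of the departure is not established, because neither group without TRAIL was measured, whereas the difference between T+C3/C2 and TRAIL, 4.92-fold, was measured in both groups.

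Of 15 chemokines in the list, 11 were tested, 3 were called above the sum and 0 below (0.493% and 0.164% of all genes), and the median of the 11 departures was 0.65, against 0.01 over all genes. These were CXCL1, CXCL2 and IL8, and 6 of the 11 were above at an unadjusted p under 0.05 and 0 below. CCL20, which attracts dendritic cells and lymphocytes, rose with TRAIL in both cases, by 5.67 without and 6.56 with the acids on the log2 scale, and its departure of 0.89 did not pass the test (adjusted p = 0.158, limma). CXCL10, an interferon-inducible chemokine, rose by 3.40 and 3.51, with a departure of 0.11 (SE 0.595).

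ICAM1, the endothelial and epithelial ligand of leukocyte integrins, rose 5.33-fold with TRAIL alone and 16.1-fold with TRAIL in C3/C2. Its levels were -1.95, -1.87, -1.92 and -1.69 in NT, -1.24, -1.44, -1.40 and -1.47 in C3/C2, 0.37, 0.53, 0.52 and 0.81 in TRAIL and 2.71, 2.74, 2.52 and 2.52 in T+C3/C2. All 4 groups lay apart, and the departure was 1.60 ± 0.136 (adjusted p = 3.24e-07, limma). ICAM4, whose probe lies on chromosome 19 from 10399139 to 10399198, 2.78 kb from that of ICAM1 (hg19), departed in the opposite direction, as described below.

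C3, the central component of complement, and TNFRSF4, the receptor OX40 of the TNF receptor family, were highest with both treatments. C3 lay at -5.12, -4.86, -5.22 and -5.20 in NT, between -4.36 and -4.09 in C3/C2, between -4.78 and -4.09 in TRAIL and at -1.82, -1.71, -2.51 and -2.04 in T+C3/C2. The C3/C2 and TRAIL arrays overlapped, and the co-treatment arrays stood above them all (departure 1.53 ± 0.29, adjusted p = 0.00437, limma; 2.77 on a further probe). TNFRSF4 rose 1.51-fold with TRAIL alone and 5.83-fold with TRAIL in C3/C2 (departure 1.95 ± 0.217), and the C3/C2 treatment alone raised it 3.61-fold.

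GADD45G, a stress-induced gene of growth arrest, was raised by neither treatment alone. It lay at 0.85, 1.01, 1.10 and 1.10 in NT, at 0.31, 0.30, 0.44 and 0.48 in C3/C2, at 0.93, 1.04, 1.28 and 1.27 in TRAIL and at 2.49, 2.50, 3.17 and 3.14 in T+C3/C2. NT and TRAIL overlapped, C3/C2 lay lowest, and the co-treatment lay above every other array. TRAIL changed GADD45G 1.08-fold without the acids (adjusted p = 0.72) and 5.44-fold with them (departure 2.33 ± 0.296, adjusted p = 7.63e-05, limma), and a further probe gave 2.40.

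**Figure D2:**
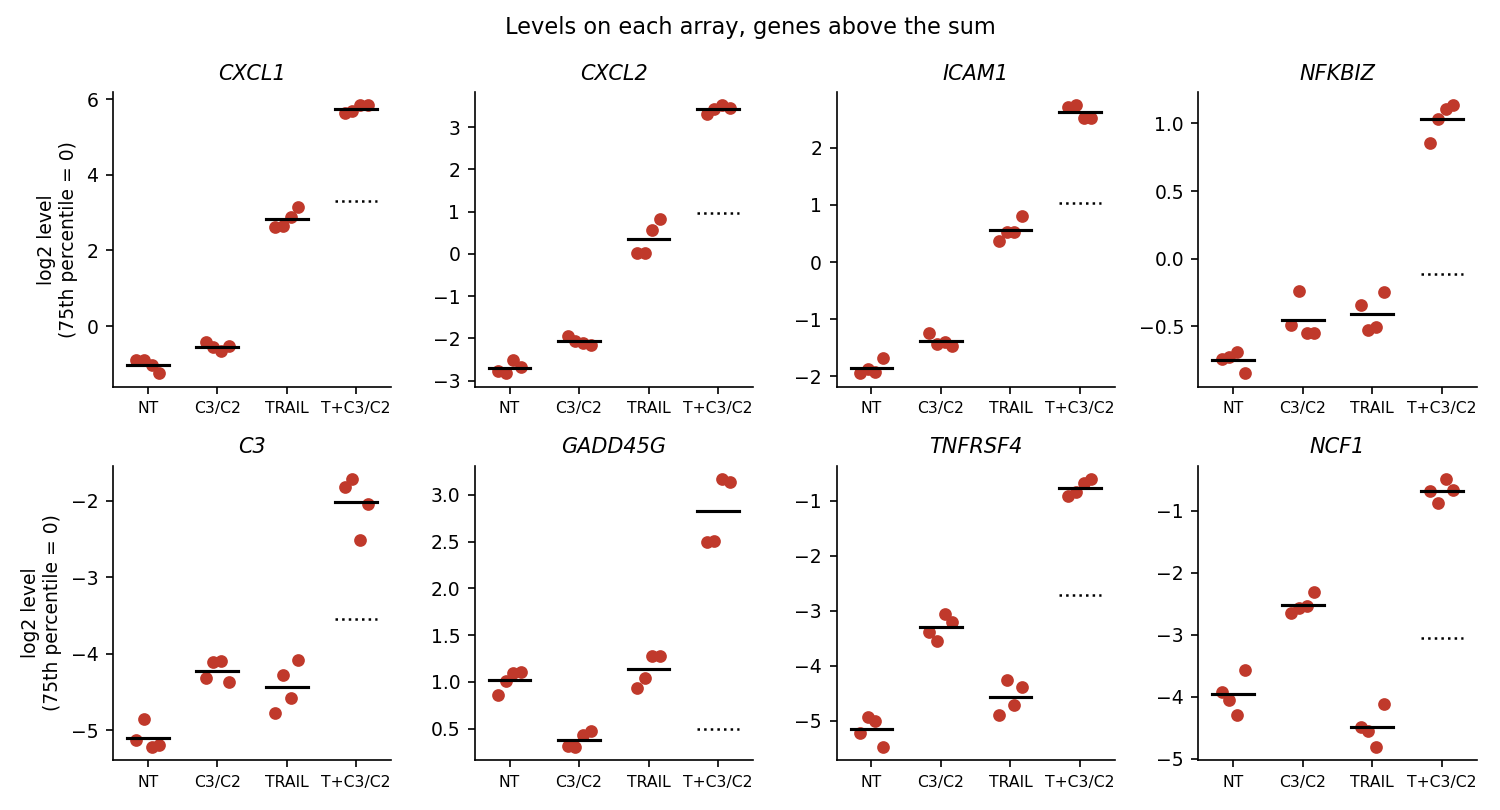
Log2 level (75th percentile of each array set to 0) of 8 genes above the sum on each of the 4 arrays of NT, C3/C2, TRAIL and T+C3/C2. Points are arrays, solid lines group means, and the dotted line over T+C3/C2 marks the sum of both single treatments. In every panel the 4 co-treatment points lie above the dotted line; for CXCL1 they lie between 5.64 and 5.83.

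NCF1, a subunit of the phagocyte NADPH oxidase, went from -3.93, -4.05, -4.29 and -3.57 in NT and -2.65, -2.57, -2.54 and -2.31 in C3/C2 to -4.49, -4.55, -4.81 and -4.12 in TRAIL and -0.69, -0.88, -0.49 and -0.66 in T+C3/C2. TRAIL left it 0.692-fold of NT alone, a difference under 2-fold, and raised it 3.57-fold in the acids (departure 2.37 ± 0.205, adjusted p = 3.88e-07, limma). A further NCF1 probe gave 1.13, which did not pass the test (adjusted p = 0.0717). GTF2IRD2, whose probe lies 7.42 kb from that of NCF1 on chromosome 7, was low with C3/C2, between -6.41 and -4.92, and lay between -4.14 and -3.14 in T+C3/C2, with NT and TRAIL between -3.06 and -2.62 (departure 1.98 ± 0.377). Here the acids lowered the gene, and less so with TRAIL, and its other probes gave 0.69, which did not pass the test, and 1.32. Both genes have near-identical copies on the same chromosome, so that their signals may be shared.

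RNU6ATAC and RNU11, small RNAs of the minor spliceosome, both lay above the sum. RNU6ATAC lay at -1.68, -1.62, -1.32 and -1.35 in NT, at -1.56, -1.39, -1.03 and -0.95 in C3/C2, at -0.86, -0.74, -0.10 and -0.10 in TRAIL and at 1.21, 1.32, 2.03 and 1.86 in T+C3/C2 (departure 1.79 ± 0.298, adjusted p = 0.00146, limma). In each group replicates 3 and 4 were higher than 1 and 2. RNU11 departed by 1.13 ± 0.204. RASD1, a small GTPase, departed by 1.67 ± 0.428 (adjusted p = 0.0375, limma) and ANKRD33B by 1.43 ± 0.342 (adjusted p = 0.0244), and both calls were lost without some single arrays.

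Several other named genes above the sum measured in all 4 groups encode regulators of transcription and signalling. Also above the sum were FAM69B at 1.26, HIST1H4A at 1.10 and CEACAM18 at 1.09. ID3, an inhibitor of helix-loop-helix factors, fell by 1.42 with TRAIL alone on the log2 scale and changed by -0.14 with TRAIL in C3/C2 (departure 1.28 ± 0.194). HES5, a target of Notch, departed by 1.03, its ligand DLL4 by 1.36, and GATA2 by 1.17. SPIB, a lymphoid factor, departed by 1.38, POU3F3 by 1.10 and ARC, an activity-induced gene, by 1.02. MIR17HG, the host transcript of a cluster of miRNAs, fell by 2.41 with C3/C2 alone and by 1.12 with C3/C2 in the presence of TRAIL (departure 1.29 ± 0.261).

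Most genes below the sum were raised by TRAIL alone, and by less or not at all in the acids. Among the 20 measured in all 4 groups, 8 rose with TRAIL alone and were not called in C3/C2, 6 rose in both cases, 5 were not called with TRAIL alone and fell in C3/C2, and 1 was called in neither. For 11 of the 20, C3/C2 made no call alone and lowered the gene in the presence of TRAIL. Of all genes, 6.16% were called lower with C3/C2 in the presence of TRAIL, whatever C3/C2 did alone. A departure below the sum favours such a fall, so that these counts are a description. On the linear scale of intensities, where a sum of differences replaces a product of fold changes, all 102 genes above kept their side and 31 of the 34 below did, with ICAM4 and GPR37L1 among the 3 that turned.

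LTB, which encodes lymphotoxin beta, a membrane ligand of the TNF family, had the largest departure below the sum among genes measured in all 4 groups. It lay at -4.69, -4.57, -5.12 and -4.96 in NT, at -4.76, -5.03, -4.42 and -4.29 in C3/C2, at 0.27, 0.56, 0.60 and 0.69 in TRAIL and at -2.11, -2.30, -1.91 and -2.10 in T+C3/C2. NT and C3/C2 overlapped, and the co-treatment lay between them and TRAIL. TRAIL raised LTB 41.2-fold without and 5.75-fold with the acids, a departure of -2.84 ± 0.286 (adjusted p = 3.98e-06, limma).

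ITGAM, the alpha chain of the leukocyte integrin Mac-1, rose with TRAIL alone and not with TRAIL in C3/C2. Its levels were -4.02, -4.16, -4.16 and -3.89 in NT, -4.11, -4.24, -4.43 and -4.34 in C3/C2, -1.58, -1.67, -1.96 and -1.66 in TRAIL and -4.70, -4.62, -4.89 and -4.94 in T+C3/C2. The co-treatment was the lowest group, and TRAIL alone stood apart above the other 12 arrays. The TRAIL effect was a rise of 5.05-fold without the acids and a ratio of 0.704 with them, under 2-fold (departure -2.84 ± 0.139, adjusted p = 1.24e-10, limma).

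UBD, an inducible ubiquitin-like protein known as FAT10, was the gene with the lowest departure, -4.78 ± 0.667 (adjusted p = 0.000203, limma). All 4 TRAIL arrays were well above background, at -0.43, -0.46, 0.21 and -0.01, as was 1 of the 4 T+C3/C2 arrays, at -5.60, -4.84, -5.45 and -6.08, and none of the 8 NT and C3/C2 arrays, which lay between -7.98 and -5.55. TRAIL raised UBD at least 46.6-fold without the acids. With the acids no bound can be given, since 3 of the 4 co-treatment arrays were not well above background, and the size of the departure is not established.

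IL4I1, a secreted amino acid oxidase, and MCAM, an adhesion molecule of melanoma and endothelial cells, were raised by each treatment alone. With both treatments they lay near their level in TRAIL alone. In the acids TRAIL still raised IL4I1 5.91-fold. IL4I1 lay at -2.07, -2.31, -2.59 and -2.34 in NT, between -0.27 and 0.01 in C3/C2, between 2.40 and 2.54 in TRAIL and between 2.24 and 2.68 in T+C3/C2, so that TRAIL and the co-treatment overlapped (departure -2.25 ± 0.162, adjusted p = 3.03e-08, limma). MCAM rose 3.58-fold with TRAIL and 3.59-fold with C3/C2, and T+C3/C2 stood at 1.2-fold of each (departure -1.58 ± 0.159). ICAM4, the red cell adhesion molecule, rose with each treatment alone and further with both. It lay between -6.57 and -5.32 in NT, where 1 of 4 arrays was well above background, between -1.38 and -1.10 in C3/C2, between -2.20 and -1.13 in TRAIL and between 0.49 and 1.00 in T+C3/C2, above all other arrays. TRAIL raised it 3.93-fold in the acids, and the departure was -2.26 ± 0.304. With normexp background correction it was -0.31 and not called, and on the linear scale ICAM4 lay above the sum.

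PI3, the elastase inhibitor elafin, lay between -0.48 and 0.04 on the 8 arrays without TRAIL, at 2.43, 2.48, 2.89 and 2.82 with TRAIL and at 1.17, 1.15, 1.21 and 1.26 with T+C3/C2. The co-treatment lay apart from both, and TRAIL raised PI3 7.77-fold without and 2.46-fold with the acids (departure -1.66 ± 0.143). IL2RG, the chain shared by several interleukin receptors, rose 2.30-fold with TRAIL alone and stood at 0.953-fold with TRAIL in C3/C2 (departure -1.27 ± 0.159), and IGFL4 at 2.63-fold and 1.13-fold (-1.21 ± 0.203). PTGS2, the inducible cyclooxygenase, lay at -2.46, -2.30, -1.25 and -0.90 in TRAIL and between -3.18 and -2.97 in T+C3/C2 (departure -1.37 ± 0.354, adjusted p = 0.0396). ICAM2 departed by -1.46 ± 0.356 and MOCS1 by -1.45 ± 0.365, with -0.46 on a further MOCS1 probe that did not pass the test, and the calls of PTGS2, ICAM2 and MOCS1 were each lost without some single arrays. GPR37L1 departed by -1.27 ± 0.227, KLK10, a secreted protease, by -1.17 ± 0.26, and CSPG4, a proteoglycan, by -1.15 ± 0.133.

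**Figure D3:**
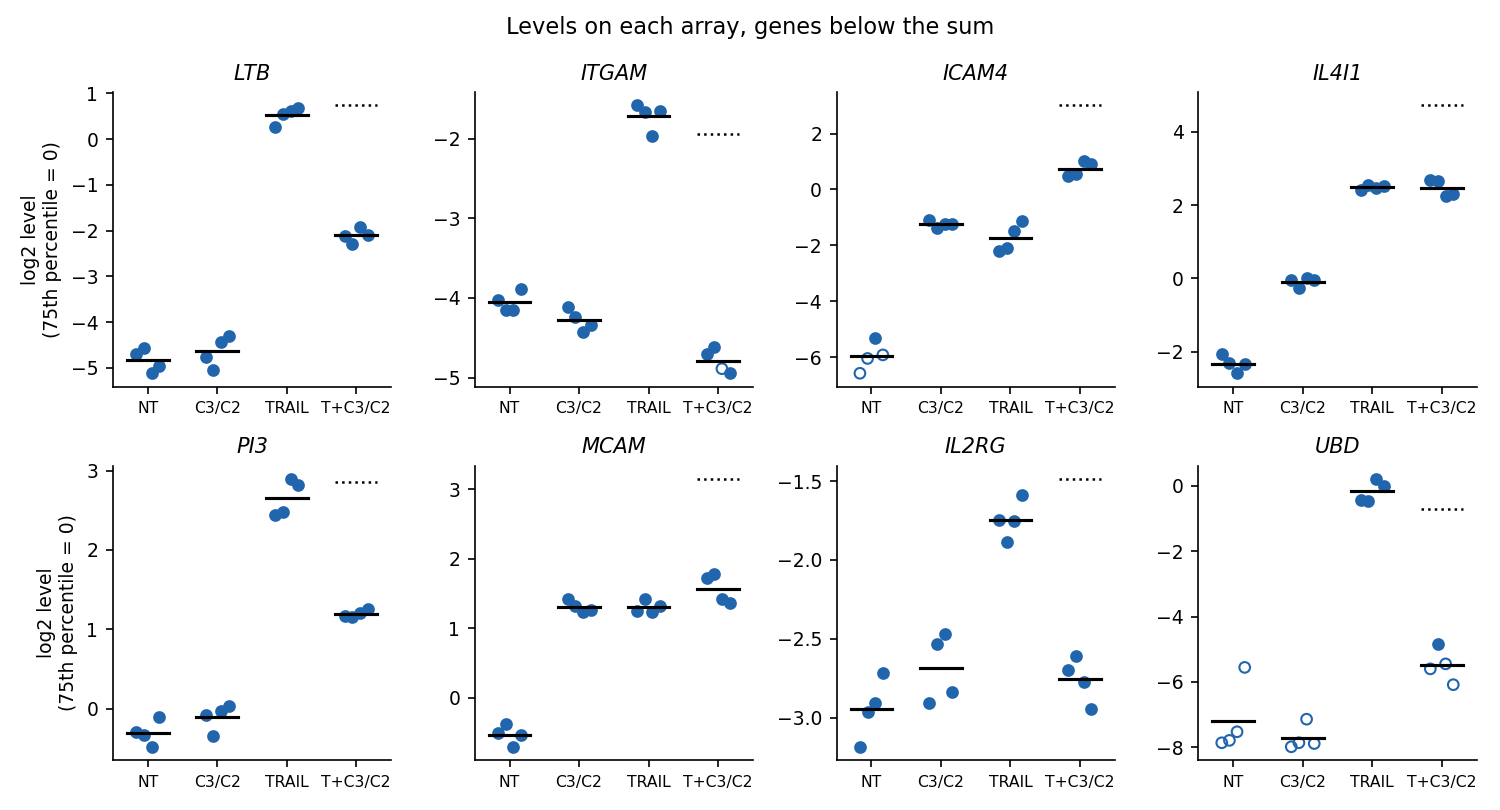
Log2 level (75th percentile of each array set to 0) of 8 genes below the sum on each of the 4 arrays of NT, C3/C2, TRAIL and T+C3/C2, with filled points for arrays well above background and open points for the others. Solid lines are group means and the dotted line over T+C3/C2 is the sum of both single treatments, under which every co-treatment point lies. LTB, ITGAM, PI3, IL2RG and UBD are highest with TRAIL alone, IL4I1 is level in TRAIL and T+C3/C2, and ICAM4 and MCAM have their highest mean in T+C3/C2.

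The NF-kB system itself departed in both directions. Of 17 subunits and feedback inhibitors tested, 1 was called above and 0 below the sum, and at any fold change 2 passed the adjusted p above and 5 below, against 1.74% and 1.14% of all genes. The median departure of the 17 was -0.17. NFKBIZ, an inducible cofactor of NF-kB, lay above, by 1.14 ± 0.144, with levels of -0.74, -0.72, -0.69 and -0.85 in NT, between -0.55 and -0.24 in C3/C2, between -0.53 and -0.24 in TRAIL and at 0.86, 1.03, 1.11 and 1.13 in T+C3/C2. Its call was lost with the array median (0.99), the spike-in probes (0.89) and normexp background correction (0.99). TNFAIP3, the feedback inhibitor A20, departed by 0.61, from a rise of 2.89 with TRAIL alone to 3.50 in C3/C2 on the log2 scale.

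The 5 below were NFKB2 at -0.81, RELB at -0.71, NFKBIE at -0.52, TNIP1 at -0.51 and RELA at -0.38, each under 2-fold. RELB rose by 2.95 with TRAIL alone and by 2.24 with TRAIL in C3/C2, and NFKB2 by 2.38 and 1.57, so that these subunits were still raised. NFKB1, the subunit of the first dimers, departed by 0.07 (SE 0.0664, adjusted p = 0.66, limma). With scaling to the array median, 2 of the 17 passed above and 5 below, and with the spike-in probes 0 and 5.

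Of 19 cytokines tested, 2 were called above and 1 below, against 0.493% and 0.164% of all genes, and their median was 0.01. Those above were IL1A and CD70, both near background. IL1A was well above background on all 4 T+C3/C2 arrays, at -4.36, -4.60, -4.30 and -4.35, on 1 of 4 C3/C2 arrays and on no NT or TRAIL array (departure 1.16 ± 0.136). The size of this departure is therefore not established. CD70, a TNF family ligand, lay between -4.16 and -3.26 in T+C3/C2 and between -7.52 and -5.60 in TRAIL (departure 1.70 ± 0.444, adjusted p = 0.0415, limma), and lost its call without some single arrays. LTB was the gene below, and FLT3LG passed at under 2-fold, -0.94.

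Among 22 cytokine receptors and signal suppressors none was called, and at any fold change 0 passed the adjusted p above and 3 below (limma; 3 above and 5 below at an unadjusted p under 0.05). Of all genes 1.74% passed above and 1.14% below, and 15.6% had an unadjusted p under 0.05. The 3 were IFNGR1 at -0.99, IL6ST, the signal chain of the interleukin 6 family, at -0.63, and TNFRSF21 at -0.63. IFNGR1 rose by 1.31 with TRAIL alone and by 0.32 with TRAIL in C3/C2.

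Of 28 immediate early genes tested, 1 was called above and 0 below, but 10 passed the adjusted p above and 0 below, against 1.74% and 1.14% of all genes, and the median was 0.46. They were CTGF (1.30), IER3 (0.92), KLF2 (0.82), FOS (0.78), ZFP36 (0.74), JUNB (0.65), FOSL1 (0.58), MAFF (0.52), ZFP36L1 (0.46) and KLF10 (0.44). With TRAIL alone 1 of the 28 was called higher, and with TRAIL in C3/C2 13 were. The count of 10 depended on the scaling: it was 6 with the array median and 1 with the spike-in probes, with medians of 0.32 and 0.21.

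FOS and JUNB, subunits of AP-1, illustrate the size. FOS rose by 0.47 with TRAIL alone and by 1.24 with TRAIL in C3/C2 on the log2 scale, and JUNB by 0.80 and 1.44. CTGF, a secreted matrix protein, lay between -3.06 and -2.86 in NT, between -3.29 and -2.98 in C3/C2, between -3.54 and -2.96 in TRAIL and at -2.51, -2.18, -1.77 and -1.66 in T+C3/C2, so that only the co-treatment stood apart. Feedback inhibitors of MAP kinase signalling showed 3 of 15 above at any fold change and 0 below, against 1.74% and 1.14% of all genes: DUSP2 at 0.91, DUSP6 at 0.87 and SPRY4 at 0.63, of which 1 was left with the spike-in probes. DUSP6 changed by -0.05 with TRAIL alone and rose by 0.83 with TRAIL in C3/C2.

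Genes of cell cycle arrest numbered 2 called above and 0 below of 21 tested, and 4 and 0 at any fold change, against 1.74% and 1.14% of all genes. Beside GADD45G these were CDKN2B, an inhibitor of cyclin-dependent kinases, at 1.05 ± 0.182, GADD45A at 0.71 and PLK2 at 0.25. CDKN2B rose 1.60-fold with TRAIL, 2.60-fold with C3/C2 and 3.31-fold with TRAIL in C3/C2. Its call was lost with the array median, the spike-in probes and normexp background correction.

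**Figure D4:**
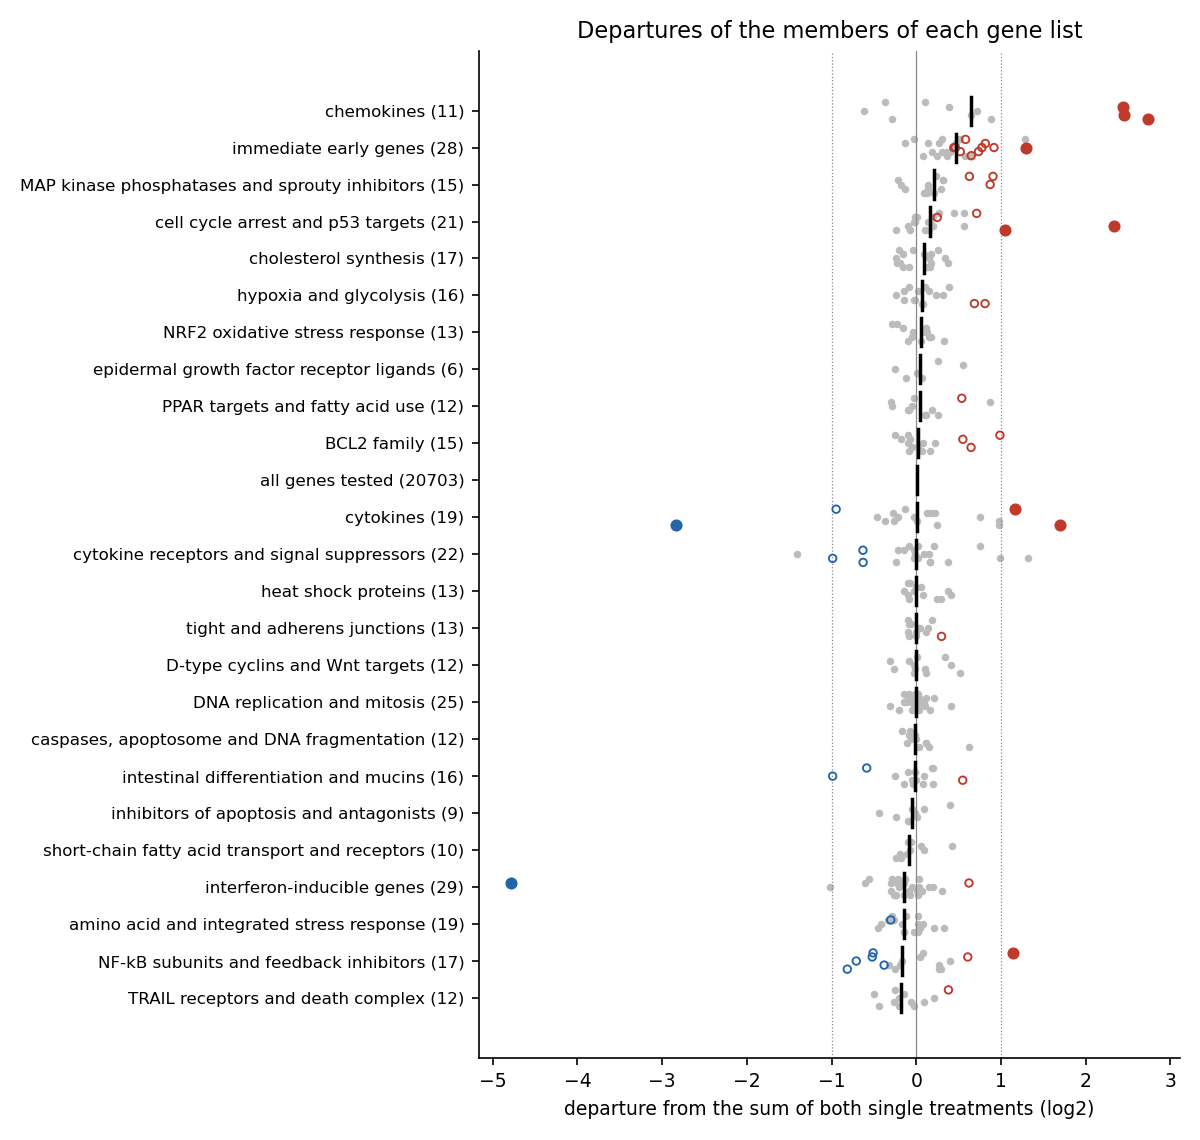
Departure from the sum (log2) of each tested member of 24 gene lists, ordered by the median, which is the black bar; the number tested is in brackets, and the row for all genes shows the median only. Filled red or blue points were called, open red or blue points passed the adjusted p at under 2-fold, and grey points did not pass; dotted lines mark 2-fold. Chemokines (median 0.65) and immediate early genes (0.46) lie to the right, and UBD and LTB far to the left.

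Of 15 members of the BCL2 family 0 were called (limma), 3 passed the adjusted p above the sum at under 2-fold and 0 below, and 4 and 2 had an unadjusted p under 0.05. Of all genes 1.74% passed above and 1.14% below, and 15.6% had an unadjusted p under 0.05. PMAIP1, the death-promoting BH3-only protein NOXA, lay at -0.35, -0.34, -0.55 and -0.62 in NT, at -0.31, -0.26, -0.46 and -0.36 in C3/C2, at -0.01, 0.11, 0.31 and 0.45 in TRAIL and at 1.19, 1.22, 1.38 and 1.47 in T+C3/C2. The co-treatment stood apart from TRAIL, and TRAIL from the arrays without it. TRAIL raised it 1.60-fold without and 3.17-fold with the acids (departure 0.99 ± 0.132, adjusted p = 0.00013, limma), just under the 2-fold limit.

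BBC3, the BH3-only protein PUMA, departed by 0.55 and BNIP3L by 0.65, but further BNIP3L probes gave 0.10 and 0.04, which did not pass. The survival genes BCL2L1 and MCL1 departed by -0.09 and -0.07 (SE 0.0755 and 0.0692). With the array median, 1 of the 15 passed above, as with the spike-in probes.

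Of 12 TRAIL receptors and members of the death complex 0 were called (limma), and 1 passed the adjusted p above and 0 below, with 1 and 2 at an unadjusted p under 0.05. Of all genes 1.74% passed above and 1.14% below, and 15.6% had an unadjusted p under 0.05. The member that passed was TNFRSF10D, a decoy receptor, at 0.38 (adjusted p = 0.0431, limma). It did not pass with the array median, where 2 others passed below. The death receptors TNFRSF10A and TNFRSF10B departed by 0.09 ± 0.128 and -0.20 ± 0.145, CASP8 by -0.06 ± 0.115, and CFLAR, which blocks caspase-8, by 0.21 ± 0.152 (SE). CASP10 departed by -0.43 (adjusted p = 0.0805), with 0.73 and 0.30 on its other probes. TNFRSF10C, a further decoy receptor, was well above background on no NT or TRAIL array, so that its departure of -0.50 (SE 0.461) has no established size. Among 9 inhibitors of apoptosis and their antagonists and 12 caspases and effectors 0 passed the adjusted p (limma; 1 above and 0 below in each at an unadjusted p under 0.05); DIABLO departed by 0.40 (SE 0.149) and by -0.25 on a further probe, neither of which passed the test, and XAF1 by -0.44 (SE 0.823), with no C3/C2 or T+C3/C2 array well above background.

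These 2 lists and 7 others, of growth factor ligands, oxidative stress, heat shock, cholesterol synthesis, DNA replication, cyclins and short-chain fatty acid transport, held 117 genes, of which 0 passed the adjusted p at any fold change (limma). At an unadjusted p under 0.05 it was 16, or 13.7%, against 15.6% of all genes tested, and the departures ran from -0.44 to 0.63. Small departures were seen elsewhere: ADM at 0.81 and VEGFA at 0.69, both targets of hypoxia, IRF1 at 0.62, the intestinal factor CDX2 at 0.55, and the mucins MUC1 at -0.59 and MUC5AC at -0.99. These are single members of longer lists. The median was 0.07 over 16 genes of hypoxia and glycolysis and -0.14 over 29 interferon-inducible genes. Over 16 genes of intestinal differentiation and mucins it was -0.01. XBP1 passed at -0.30.

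Some transcripts were measured in the co-treatment and in no other of the 4 groups. They numbered 16 of the 102 above the sum, their levels in T+C3/C2 lay between -4.62 and -2.02, and 13 were on no T+SN array. A transcript well above background in a single group passed the filter, so that these could enter through the group in which they are high and then had to differ, and their number is no support for a departure. The only named gene among them was ERO1LB, an oxidase of the endoplasmic reticulum. Where a single group was not measured, the departure can be given as a bound. RBP5, a retinol-binding protein, lay at least 1.84-fold above the sum (measured departure 1.40, adjusted p = 0.00377, limma), because no TRAIL array was well above background. The next candidates, KCNF1 and RENBP above and ACTA2, VSTM2A and DUOX1 below, were not called.

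The effect of TRAIL was also measured in cells given SN, on 8 arrays. They enter the departure through the common estimate of the spread, the filter and the choice of a probe for each gene. Of the 102 genes above the sum, 1 unnamed transcript was measured in none of the 4 groups and passed the filter through T+SN. The SN arrays lay on slide 3 and the T+SN arrays on slide 4, so that this effect too is a difference between both slides. In these cells 188 genes rose with TRAIL (0.908%) and 34 fell (0.164%). CXCL1 rose by 6.64, CXCL2 by 5.81 and ICAM1 by 3.91 on the log2 scale with TRAIL in SN, against 3.85, 3.04 and 2.41 with TRAIL alone and 6.29, 5.50 and 4.01 in C3/C2. For these 3 genes the TRAIL effects in SN lay near those in C3/C2. The levels of CXCL1 did not: it lay between -2.19 and -1.83 in SN, against -0.66 to -0.43 in C3/C2. In T+SN it lay between 4.32 and 4.98, against 5.64 to 5.83 in T+C3/C2. The means in T+SN and T+C3/C2 were 3.37 and 3.42 for CXCL2 and 2.45 and 2.62 for ICAM1. IL4I1 rose by 2.75 in SN, against 4.81 with TRAIL alone and 2.56 in C3/C2. ITGAM changed by -0.15 in SN, against 2.33 alone and -0.51 in C3/C2. LTB lay between -4.17 and -3.67 in T+SN, below its T+C3/C2 and TRAIL arrays, and on no SN array was it well above background. UBD was well above background on none of these 8 arrays.

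Other genes above the sum had values in SN further from those in C3/C2. GADD45G rose by 0.43 with TRAIL in SN (adjusted p = 0.159, limma), against 2.44 in C3/C2, and FSTL3, an inhibitor of activin, by 0.24 against 1.53. The difference between SN and C3/C2 was not tested.

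Replicates 1 and 2 differed from 3 and 4 in every group. The first principal component of the deviations from the group means, which held 23.9% of their variance, separated replicates 1 and 2 from 3 and 4 for 16 of 16 arrays. The departure was also computed within each set, with 2 arrays per group, for the 31 named genes called. They were chosen for a call on these same arrays, which favours the same sign in both sets, so that the values within the sets are a description. Of the 31, 22 were called in replicates 1 and 2 alone, 24 in 3 and 4 alone, and 19 in both.

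CXCL1 departed by 2.62 in replicates 1 and 2 and by 2.27 in 3 and 4, GADD45G by 2.14 and 2.52, ITGAM by -2.94 and -2.74 and LTB by -2.35 and -3.33. C3 departed by 1.98 and 1.08, CTGF by 0.84 and 1.76 and GPR37L1 by -0.73 and -1.81. RASD1 departed by 1.56 ± 0.0806 and 1.77 ± 0.129 within the sets.

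**Figure D5:**
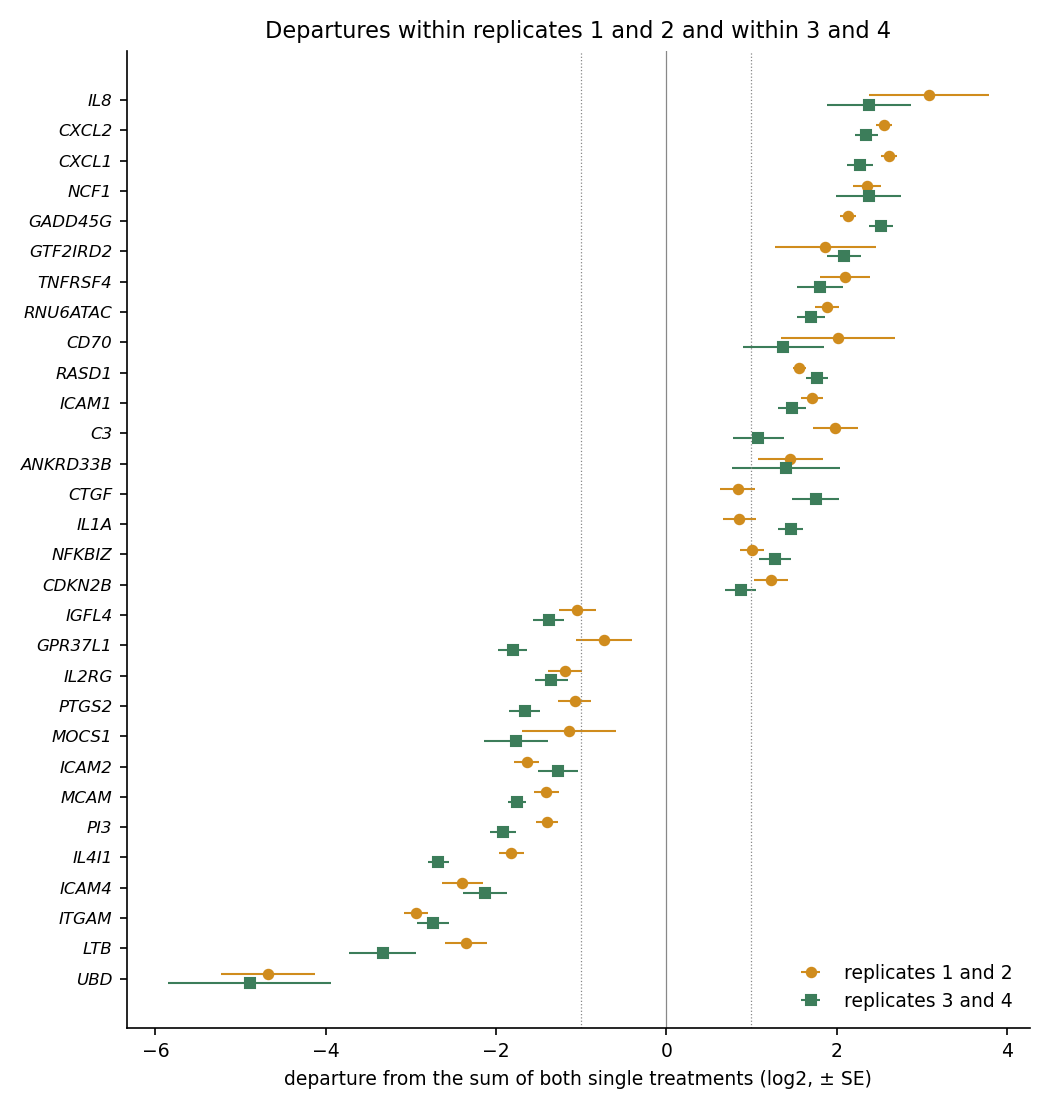
Departure from the sum (log2) of 30 of the 31 named genes called, computed from replicates 1 and 2 alone (circles) and from replicates 3 and 4 alone (squares), with SE as bars; dotted lines mark 2-fold. The gap between the sets is widest for GPR37L1, at -0.73 and -1.81.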

How the data were processed

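RNA of HT29 cells was labelled with Cy3 and hybridised alone to Agilent whole human genome 8x60K arrays. The authors extracted spots with Agilent Feature Extraction 10.7.3.1, per the file headers with background and spatial trends removed, and deposited the intensity of each spot, not normalized between arrays, with flags for signals well above background. The authors' table holds the same intensities as a ratio to the median of each array, as checked on the values, and its 24 flag columns were not used. The authors went on in Rosetta Resolver, which was not repeated here.

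Without control and outlier spots, log2 of the deposited intensity was averaged over spots of the same probe, and the 75th percentile of the array was subtracted. A probe was kept where all 4 arrays in any of the 6 groups were well above background (27957 of 50599 probes), and a gene took its kept probe of highest mean. This gave 20703 genes, of which 6668 were counted as having no official symbol. These carry an accession, a probe name, a locus number or the name of an open reading frame. Means of 6 groups were fitted over 24 arrays with limma 3.58.1 in R 4.3.3, leaving 18 residual degrees of freedom. The Benjamini-Hochberg adjustment covered all 20703 genes. The number of arrays limits the precision. For 17 genes 1 array lacked a value. On simulated data with 20686 genes and this contrast, 86% of 50 genes given a departure of 1.5 were recovered, 98% at 2 and 0% at 0.5, with 6 false calls. The simulated noise was independent between arrays, with no differences between slides or sets of replicates. These rates therefore need not hold for the real arrays.

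Members, lists, tests and motifs were chosen with earlier results of these data known. The genes named are the 12 with the largest departure on each side among those called, with an official symbol and measured in 4 groups, every list gene called, 2 from each apoptosis list and 3 bounds a side; other genes named were chosen after their values were seen. The rule also names 1 gene that is not reported here, though it stays in the counts. Probe coordinates are on hg19. Alternatives were the scaling, background, filter, probe rule, arrays fitted, replicate and slide blocks, each array left out and the linear scale; those by sets of replicates were added after seeing the data. Plots used Python 3.11.15 with matplotlib 3.10.9.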

Additional observations from a re-analysis of the deposited data

Results flagged for a closer look

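The effect of TRAIL differed with and without C3/C2 by the test of the difference itself for 102 genes above the sum and 34 below it, which are described above. Among 148 sets of 4 arrays of a named gene, 7 (4.73%) held an array far from the others, and chance gives about 1 in 20. The gap to the nearest array took 0.894 of the range for IL1A in NT, where replicate 2 was lowest and no array was well above background. For UBD it took 0.854 in NT, where replicate 4 lay at -5.55 and the next at -7.52, and 0.854 in C3/C2, where replicate 3 was highest, again with no array well above background. It took 0.841 for ANKRD33B in C3/C2, where replicate 2 was highest, and 0.856 for CASP10 in C3/C2, where replicate 1 was lowest, at 1.92 against 2.24. It took 0.855 for XAF1 in T+C3/C2, where replicate 2 was highest and no array was well above background, and 0.855 for DIABLO in T+C3/C2, where replicate 3 was highest, at 6.60 against 6.36.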

How the results depend on the processing

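The number of genes above and below the sum, 102 and 34, moved by over 1.5 times as follows. With the array median 64 were below, with the spike-in probes 42 were above, with normexp background correction 33 were above and 10 below, and with probes well above background on all 16 arrays 47 and 14. Without a fold limit it was 361 and 235, and with an unadjusted p 212 and 112. With the replicate number as a block, 53 were below. Same-numbered arrays correlated in their deviations from the group means with r from 0.0799 to 0.475, over 0.1 in 23 of 24 pairs, and 14 of 16 arrays correlated best with their own number, as a hint from the data and not from the design; the block changed no call of the 37 genes named by rule. With replicates 1 and 2 against 3 and 4 as a term, chosen after seeing the data, 56 were below. All other alternatives kept both counts within 1.5 times, slide as a random block included (96 and 32, consensus correlation 0.0256). Leaving out each array in turn gave 83 to 119 above and 29 to 40 below.

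Of the 31 named genes called, 31 kept their call with quantile normalization, 28 with the array median, 22 with the spike-in probes and 18 with normexp, and none changed sign under these. With the array median the calls of RASD1 (1.52), NFKBIZ (0.99) and CDKN2B (0.90) ended. The spike-in probes ended these 3 and those of C3 (1.28), ANKRD33B (1.18), ICAM2 (-1.71), IL1A (0.91), CD70 (1.44) and CTGF (1.04). Normexp ended those of ICAM4 (-0.31), GPR37L1 (-0.28), MOCS1 (-0.35), CD70 (0.46), IL1A (0.50), ANKRD33B (0.67), IL2RG (-0.71), IGFL4 (-0.58), PTGS2 (-0.78), ICAM2 (-0.92), CTGF (0.81), NFKBIZ (0.99) and CDKN2B (0.86). Calls lost without single arrays kept their sign. RASD1 (1.44 to 1.71 where lost) needed NT replicates 3 and 4, all C3/C2 replicates, TRAIL replicates 1 and 2 and T+C3/C2 replicates 3 and 4. ANKRD33B (1.30 to 1.37) needed NT replicates 1 and 4, C3/C2 replicate 4 and TRAIL replicate 2. CDKN2B (0.89 to 0.99) needed TRAIL replicate 1 and T+C3/C2 replicate 3. ICAM2 (-1.39 to -1.30) needed NT replicate 4, C3/C2 replicates 1 and 2, TRAIL replicates 1 and 2 and T+C3/C2 replicates 3 and 4. MOCS1 (-1.48 to -1.27) needed 9 arrays, all but NT replicates 1 and 4, C3/C2 replicate 2, TRAIL replicates 1 and 4 and T+C3/C2 replicates 1 and 2. PTGS2 (-1.41 to -1.09) needed 12, all but NT replicates 3 and 4 and TRAIL replicates 1 and 2. CD70 (1.58 to 1.76) needed 11, all but NT replicate 3, TRAIL replicates 1, 2 and 4 and T+C3/C2 replicate 1. Signs turned for TNFRSF10C with normexp (0.17), CASP10 with the mean of probes (0.20) and XAF1 without NT replicate 3 (0.0445, with -0.93 as the lowest value over arrays left out), none of them called, and on the linear scale for ICAM4 (96.6% of the 75th percentile above the sum) and GPR37L1 (20.01%). For these results the cause was not tested. Signal over background limits the calls: without the 16-array filter, 40 of the genes above and 14 of those below were not well above background in some group.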
